A study of Danio rerio with 116 samples.

Results

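The regions described here are the 300 non-overlapping windows of 10 kb on chromosomes 1 to 25 that held most CG calls when all control libraries were merged. A CG call is the methylation state of 1 cytosine of a CG dinucleotide on 1 sequencing read. A control call fell in 126642 windows, with a mean of 14.8 calls and a median of 12 per window, and the 300 members had at least 83. Windows that overlap the stretch of chromosome 4 with the amplified female-specific ribosomal DNA were left out. The members were chosen by their number of control calls, so those numbers are given as a description, without a test. Methylation was not used in the choice, nor were the calls of the germline libraries. The control reads that chose the windows did also give their methylation in control cells. Only the call share was compared in windows chosen without the control libraries compared, so the methylation comparisons are not independent of the choice.

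The genomes of zebrafish of the transgenic line Tg(vasa:EGFP) were sequenced sparsely after bisulfite treatment, in 59 libraries of cells sorted as EGFP +ve (the germline) and 57 of EGFP -ve cells of the same kind of fish, called control cells. All fish, controls included, carried the transgene, in which the promoter of vasa, a germ cell gene, drives EGFP. A library of 1 to 28 days post fertilisation (dpf) came from 10 pooled fish without a sex label, at 1, 2, 4 and 7 dpf, at 11 and 14 dpf and at 21, 25 and 28 dpf, and a library of 35, 40, 45, 50 or 70 dpf came from 1 female or 1 male, the sex being presumptive up to 50 dpf. There were 38 groups by cells, age and sex, with 5 libraries for EGFP +ve cells of 28 dpf and 3 for every other group. Control cells are a mixture of all cells that lack EGFP, and the study's filter before sorting kept out large cells, so that grown oocytes are not represented. No expression was measured, so the identity of the sorted cells could not be checked against marker genes here.

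Most cytosines of CG dinucleotides are methylated in vertebrate genomes, and unmethylated stretches are mainly CG islands at promoters. Repeated DNA, such as satellites, ribosomal DNA and transposons, can collect reads from many genomic copies at a single place of an assembly in which the copies are collapsed or absent. A window can therefore hold many calls because reads pile up on few cytosines, or because it is rich in CG dinucleotides and each read that lands there gives several calls.

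The 300 windows held 37822 of 1879847 control calls, or 2.01%, and 24813 of 1550974 EGFP +ve calls, or 1.6%. A window was called stacked where its merged control calls were at least 1.5 per called position, and spread otherwise. Only 39 windows were stacked and 261 were spread. The label of a repeat-like window thus matched the pile-up of calls in 39 windows, while the spread windows had a median of 1.12 control calls per position, close to the 1.00 of all windows. A spread window was covered by a median of 14 control reads, against a mean of 4.47 in all windows with a control call, and had a median of 7.07 calls per read, against 3.32 over all control reads. The spread windows thus held more reads as well as more calls per read. Both were counted in the control libraries that chose the windows, so they only describe the choice. CG density itself was not measured, as no genome sequence was used. Of the members, 99 had at least 1.2 calls per position, 32 at least 2 and 18 at least 5, so a different limit moves windows between the kinds.

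**Figure D1:**
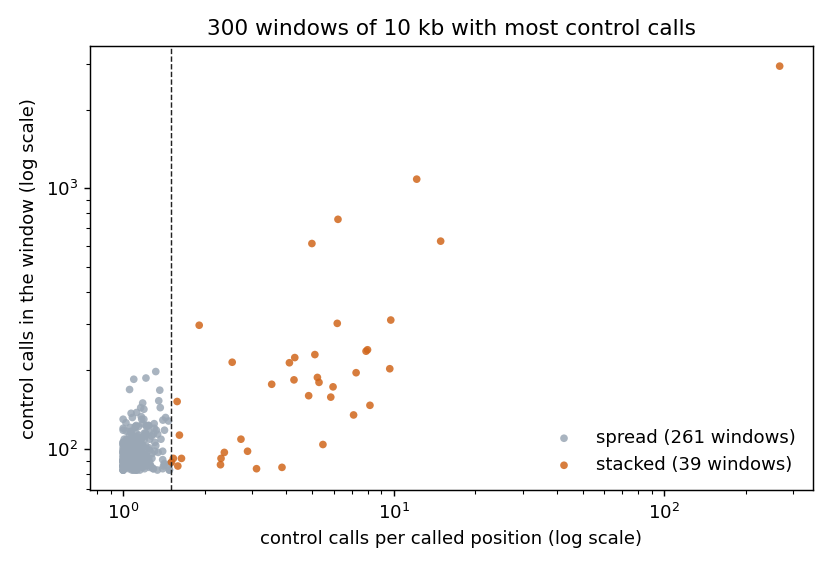
Control calls in each of the 300 windows against the control calls per called position, both on log scales, with 1 point per window and the limit of 1.5 calls per position as a dashed line. The 261 spread windows form a compact cloud of 83 to 198 calls, and the 39 stacked windows reach up to 2934 calls and 267 calls per position.

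The stacked windows held 11568 control calls and 10267 EGFP +ve calls. The spread windows held 26254 control calls and 14546 EGFP +ve calls. Since control calls chose the members, and most spread windows lay close to the limit of the choice, the lower number of EGFP +ve calls in them is set in part by the rule and is not read as a difference between the cells. Of the 300 windows, 106 (35.3%) were also among the 300 windows with most EGFP +ve calls. These were 30 of the 39 stacked windows (76.9%) and 76 of the 261 spread windows (29.1%). The members with the fewest control calls lay at a continuum. The last 3 members, chr19:20740001-20750000, chr20:6820001-6830000 and chr22:220001-230000, had 83 control calls each, 1 further window with 83 was left out by its later place in the genome, and the next windows had 82.

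The windows lay on all 25 chromosomes. Chromosome 4 held most members, 25 of its 6443 windows, followed by chromosome 14 with 19 of 4979 and chromosome 10 with 16 of 4369. Per 1000 windows this was 3.88, 3.82 and 3.66 members, against 1.35 on chromosome 8, where the share was lowest. The 39 stacked windows were on 15 of the chromosomes at most 5 to a chromosome (chromosome 16), and 10 chromosomes had none. Within 2 Mb of the first or last called position of a chromosome lay 56 of the 261 spread windows (21.5%) and 3 of the 39 stacked windows (7.69%), against 7.62% of all windows with a control call. No gene or repeat annotation of the assembly of the files was used here, so the windows are given by position only.

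Several members lay side by side. In 19 places, 42 members were separated by at most 1 other window. On chromosome 14 the 3 windows of chr14:19780001-19810000 were all stacked, with 730 control and 665 EGFP +ve calls, and on chromosome 10 the 3 windows of chr10:16830001-16860000 were all stacked, with 567 and 534 calls. Chromosome 16 had a pair of stacked windows in chr16:26000001-26020000, with 398 control and 333 EGFP +ve calls, and a further pair in chr16:26050001-26070000, with 398 and 412 calls. The remaining runs of 3 were made of spread windows. They were chr19:48350001-48380000, with 338 control and 192 EGFP +ve calls, and chr13:15200001-15240000, with 294 and 261.

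The densest window of all, chr4:61790001-61800000, held 2934 control calls and 2923 EGFP +ve calls, 205 and 247 times the mean of the windows with a call. The calls came from 375 control reads and 374 EGFP +ve reads, seen in 53 control and 55 EGFP +ve libraries. All of them lay at 11 positions within 191 bp, from 61791007 to 61791197, and 98.8% at 8 of these positions. No called positions neighboured each other, so every cytosine was read on 1 strand only. Of the control reads here, 66.7% repeated the set of called positions of an earlier read of their library, as did 66.8% of the EGFP +ve reads. The first read of each set is not counted in these shares. Such reads may be copies of 1 molecule or separate molecules of the same place, and these cannot be told apart in the files.

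Cytosines of this window were highly methylated in both kinds of cells. In EGFP +ve cells 95.4% of the calls were methylated, and in control cells 92.3%. In libraries with at least 3 calls there, EGFP +ve cells averaged 96.0% ± 4.18 (SD, n = 55), with a lowest value of 81.3%, a median of 96.9% and a highest of 100%. Control cells averaged 90.8% ± 10.3 (SD, n = 53), from 37.5% over a median of 92.6% to 100%. The values overlapped widely, and the mean of EGFP +ve libraries was the higher one at 16 of the 19 combinations of age and sex. In the rest of chromosomes 1 to 25, EGFP +ve libraries had the higher mean at 17 of the 19. Methylation there averaged 79.5% in EGFP +ve and 76.8% in control libraries. The direction of the difference was thus not particular to this window, and its size was not tested against the rest. By age and sex, EGFP +ve cells were at 96.0% ± 4.79 (n = 27) at 1 to 28 dpf, 96.7% ± 4.10 (n = 12) in females and 95.7% ± 3.61 (n = 10) in males of 35 to 50 dpf. Control cells were at 87.9% ± 13.7 (n = 25), 93.4% ± 3.70 (n = 12) and 92.9% ± 5.56 (n = 11). At 70 dpf the means were 95.4% ± 2.78 (n = 6) for EGFP +ve and 94.8% ± 5.42 (n = 5) for control cells.

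Among reads with at least 7 calls in the densest window, 63.2% of 370 control reads and 73.3% of 367 EGFP +ve reads were methylated at every call, and 1 control read and 0 EGFP +ve reads were unmethylated throughout. Each of the 8 well covered positions was more methylated in EGFP +ve than in control reads, by pooled calls. The first of them, position 61791038, had 92.7% of 331 EGFP +ve calls and 88.0% of 325 control calls methylated. The last called position, 61791197, had no methylated call among 6 EGFP +ve and 8 control calls. The reads with a call at this position also gave calls at other positions of the window. With so few calls nothing more is read from it.

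**Figure D2:**
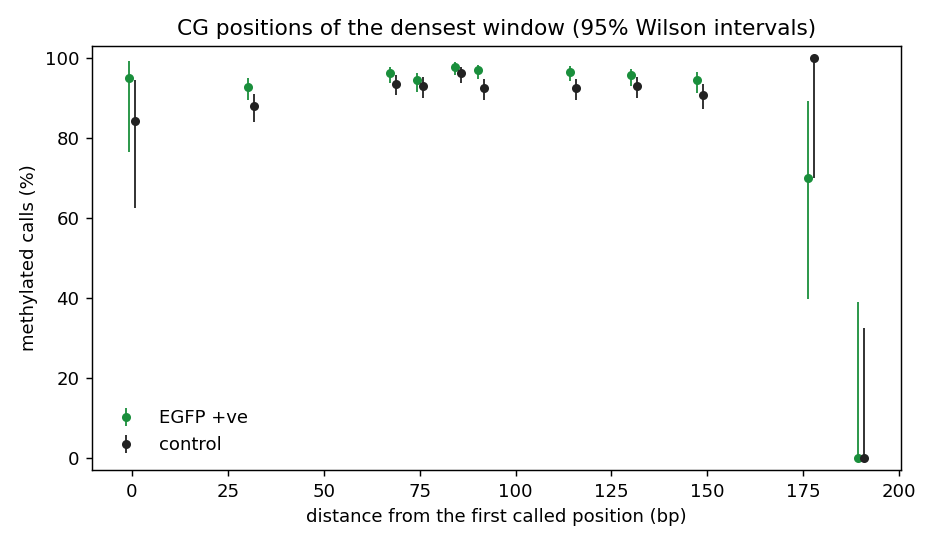
Methylated calls (%) at each called position of the densest window against the distance from the first of them (bp), for merged EGFP +ve and merged control libraries, with 95% Wilson intervals that cover counting error only. The 8 positions with many calls lie between 88.0% and 97.8%, and the last position is at 0 in both kinds of cells.

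The next densest windows were stacked as well, and their methylation differed from one to the next far more than between the cells. The window chr7:52740001-52750000 held 1082 control and 982 EGFP +ve calls and was the only member seen in all 57 control and all 59 EGFP +ve libraries. Its calls were 74.7% methylated in control and 76.7% in EGFP +ve cells. The window chr7:34190001-34200000, with 759 control calls, was 94.2% methylated in both, and chr5:820001-830000, with 613, was 93.0% methylated in control and 91.7% in EGFP +ve cells. The window chr17:53290001-53300000, at the very end of its chromosome, held 626 control calls and was 60.1% methylated in control and 60.5% in EGFP +ve cells. The remaining windows of the first 10 were at intermediate levels too. In control and EGFP +ve cells these levels were 55.4% and 47.8% for chr11:17430001-17440000, 68.0% and 63.1% for chr14:19790001-19800000, 57.9% and 56.0% for chr16:26000001-26010000, and 59.9% and 65.4% for chr4:28570001-28580000.

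The largest difference between the cells in these 10 windows was that of chr10:6920001-6930000, with 66.8% methylated of 298 control calls and 46.7% of 165 EGFP +ve calls. Library values ranged from 0.0% to 100% in both kinds of cells and therefore overlapped over the whole scale. At 1 to 28 dpf the window had 70.3% methylated of 172 control calls and 27.1% of 70 EGFP +ve calls, while in females of 35 to 50 dpf it had 49.1% of 53 and 50.0% of 56. In males of these ages it had 61.2% of 49 control calls and 66.7% of 24 EGFP +ve calls, and at 70 dpf 91.7% of 24 and 93.3% of 15, so EGFP +ve cells were the lower ones in the pooled calls up to 28 dpf only. These were few reads, 60 in control and 35 in EGFP +ve libraries altogether.

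Across the 39 stacked windows the methylation of control calls ranged from 7.61% to 95.7% with a median of 64.6%, and that of EGFP +ve calls from 4.44% to 95.4% with a median of 65.6%. Between 20 and 80% methylation lay 26 of the 39 stacked windows in control cells and 28 in EGFP +ve cells, against 40 and 45 of the 261 spread windows. Of the stacked windows, 26 were seen in at least 30 control libraries, and 22 of these were between 40 and 80% methylated in control cells. A difference of more than 20 points between the merged cells was seen in 2 of the 39 stacked windows and 20 of the 261 spread windows. The spread windows rest on fewer reads, and the share over all windows is not given here.

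The spread windows had a median methylation of 90.0% in control and 91.3% in EGFP +ve cells. In control cells 203 of the 261 were above 80% and 18 below 20%, and of these 184 and 13 were so in EGFP +ve cells too. The most heavily covered of the unmethylated windows was chr4:18600001-18610000, with 11.1% methylated of 153 control calls and 8.62% of 58 EGFP +ve calls. The window chr20:48250001-48260000 had 2.00% of 150 and 0.0% of 73 calls methylated, and chr24:1010001-1020000 had 0.0% of 104 and 9.88% of 81. Of all windows with at least 20 control calls, 4.35% were below 20% methylated, against 22 of the 300 members. These windows were picked out after their values were seen.

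**Figure D3:**
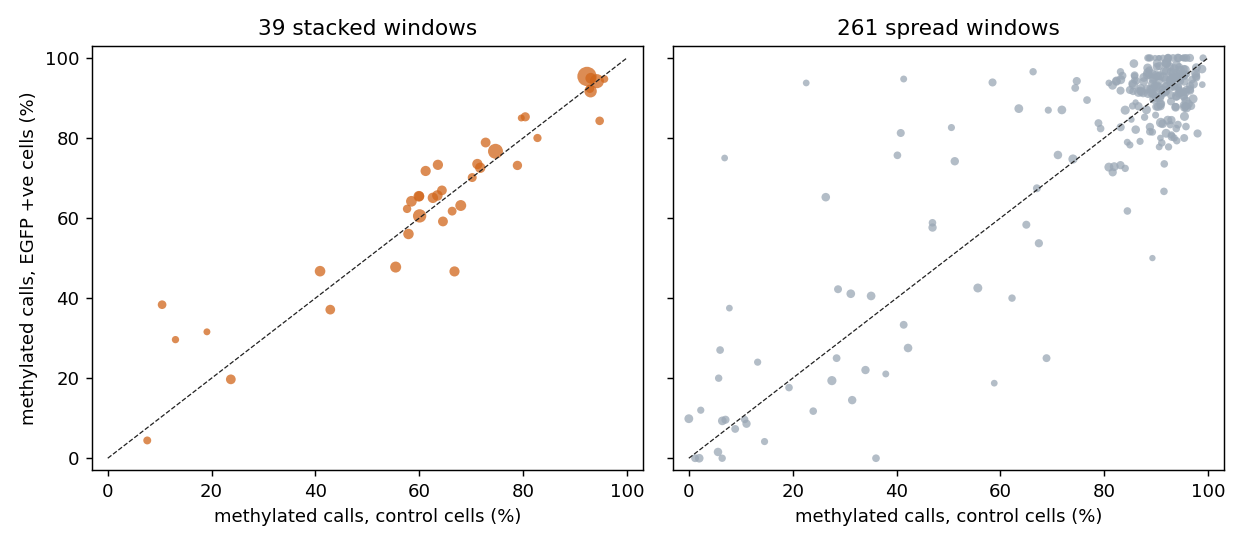
Methylated calls (%) of each of the 300 windows in merged EGFP +ve against merged control libraries, stacked windows on the left and spread windows on the right, with larger points for more calls and a dashed line of equal values. Stacked windows lie along the line over the whole range with medians of 64.6% in control and 65.6% in EGFP +ve cells, and most spread windows lie above 80% in both.

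Reads with several calls were more numerous in spread than in stacked windows, where many of them came from the densest window. Of reads with at least 4 calls in a stacked window, 53.0% of 756 in control and 60.7% of 676 in EGFP +ve cells were methylated at every call, and 4.10% and 2.96% were unmethylated throughout. The densest window gave 375 of these control reads and 374 of these EGFP +ve reads. Without it, 43.3% of 381 and 45.0% of 302 reads were methylated at every call, and 7.61% and 6.62% were unmethylated throughout. In the 26 stacked windows between 20 and 80% methylation in control cells, 18.9% of 127 control reads and 10.8% of 93 EGFP +ve reads were methylated at every call, and 6.30% and 8.60% at none, so most of these reads held calls of both states. In spread windows the shares were 53.5% of 2946 and 57.8% of 1708 reads fully methylated, and 9.10% and 8.20% unmethylated. Within stacked windows, 36 pairs of neighbouring positions, the cytosines of the opposite strands of 1 CG, had at least 20 calls each over all libraries. Their methylation differed by a median of 11.4 points, and by more than 20 points in 6 pairs. The largest difference was on chromosome 16 at position 26065690, with 5.71% methylated of 35 calls and 72.5% of 40 calls at the position beside it. On chromosome 11 the position 17434305 had 36.0% methylated of 25 calls and its neighbour 96.0% of 25. Whether the reads of both strands came from the same genomic copy cannot be told from the files.

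No window was called different in methylation between EGFP +ve and control cells. The test was a quasi-binomial regression of the calls of each library with stage as a covariate, on the 249 windows of chromosomes 1 to 25 that had at least 100 calls and calls in at least 10 libraries of each kind of cells. With Benjamini-Hochberg adjustment 0 windows (0.0%) passed, and 20 (8.03%) had an unadjusted p under 0.05. On data simulated at the same depth, this test recovered 1 of 25 windows changed by 20 points and 20 of 24 changed by 40. It also made 4 false calls. The simulated windows were held to intermediate methylation, and most tested windows were more methylated. The scatter between simulated libraries was a fixed setting that was not fitted to these data. For both reasons the recovery in these data may differ. A window that was not called is therefore not shown to be alike in the cells. Of the 300 members 96 could be tested, 31 stacked and 65 spread, with 0 called and 8 below that unadjusted limit. Of the 96, 56 were higher and 40 lower in EGFP +ve cells, with a median difference of 1.19 points, against 0.96 points over all windows tested. The densest window had the lowest p of the members (3.08 points, p = 0.000999 by quasi-binomial regression, adjusted p = 0.0862). By the same quasi-binomial test it did pass with at least 200 calls per window, where 47 windows were tested (adjusted p = 0.0469), and with reads of the same set of positions counted singly (6.12 points, adjusted p = 0.0381), but was at an adjusted p of 0.492 with 1 call per read and of 0.705 without the libraries of replicate A.

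In all 300 windows together, libraries had 80 to 2698 calls (median 409.5), so the Wilson interval of its methylation had a median half-width of 3.94 points. The intervals cover counting error only and take each call as independent, although calls of 1 read go together. The reads carry no molecular identifiers. The question of whether germline cells differ from control cells in these windows was put to the pooled percentage of methylated calls of each library, with labels permuted within age and sex. At 1 to 28 dpf, EGFP +ve cells had 79.2% ± 5.25 methylation (SD, n = 29), with values from 69.2% over a median of 78.8% to 90.8%. Control cells had 75.3% ± 5.03 (n = 27), from 65.8% over 75.3% to 84.9%. The ranges overlapped, and the EGFP +ve mean was higher at 9 of 9 ages, by 3.82 ± 1.38 points (SE; permutation p = 0.00594, adjusted over 13 comparisons p = 0.0640), a difference that did not pass after adjustment. The rest of chromosomes 1 to 25 differed by 2.45 points in the same libraries, and the gap between the windows and the rest did not separate the cells (1.38 points, permutation p = 0.309). Among libraries of the same sequencing run the difference in the windows was 4.54 points (permutation p = 0.00223), and without the windows of chromosome 4 it was 2.32 points (permutation p = 0.135). The 3 EGFP +ve libraries of 1 dpf were at 76.9%, 85.8% and 83.4% and the 3 control libraries at 70.9%, 73.2% and 74.9%. In the windows this was the only age up to 28 dpf without overlap. In the rest of chromosomes 1 to 25 the EGFP +ve libraries lay above the control libraries without overlap at 1, 2 and 4 dpf.

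In males of 35 to 50 dpf, EGFP +ve cells had 83.5% ± 4.25 methylation (n = 12) against 79.1% ± 3.56 (n = 12) in control cells. The difference of 4.36 ± 1.41 points had an exact permutation p of 0.0133 (adjusted p = 0.0640) and was positive at 3 of 4 ages. Within sequencing runs it was 3.89 points (permutation p = 0.0796). At 35 dpf the EGFP +ve libraries of males were at 89.3%, 87.8% and 88.2%, above the control libraries at 80.5%, 80.1% and 76.9%. In females of the same ages EGFP +ve cells had 79.3% ± 3.61 (n = 12) and control cells 80.8% ± 1.96 (n = 12), a difference of -1.48 ± 1.14 points (exact permutation p = 0.245, adjusted p = 0.618). With the top 1000 windows in place of 300 the difference in females was 2.83 points (exact permutation p = 0.0307), of the opposite sign. The female EGFP +ve libraries of 40 dpf, at 80.7%, 81.5% and 84.6%, lay above their 3 control libraries, at 78.3%, 79.3% and 79.1%. This separation was not particular to the windows. The means differed by 3.38 points there and by 4.27 points in the rest of the genome, also without overlap. Over the 19 combinations of age and sex, the cells did not overlap at 3 in the windows and at 6 in the rest. With 3 against 3 libraries the smallest possible exact permutation p is 0.1. In the windows at 70 dpf the cells were at 81.4% ± 4.05 and 79.7% ± 8.99 (n = 6 each, exact permutation p = 0.745). The control libraries of males of 70 dpf ranged from 62.5% to 88.7%, the widest spread of the groups of 3.

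**Figure D4:**
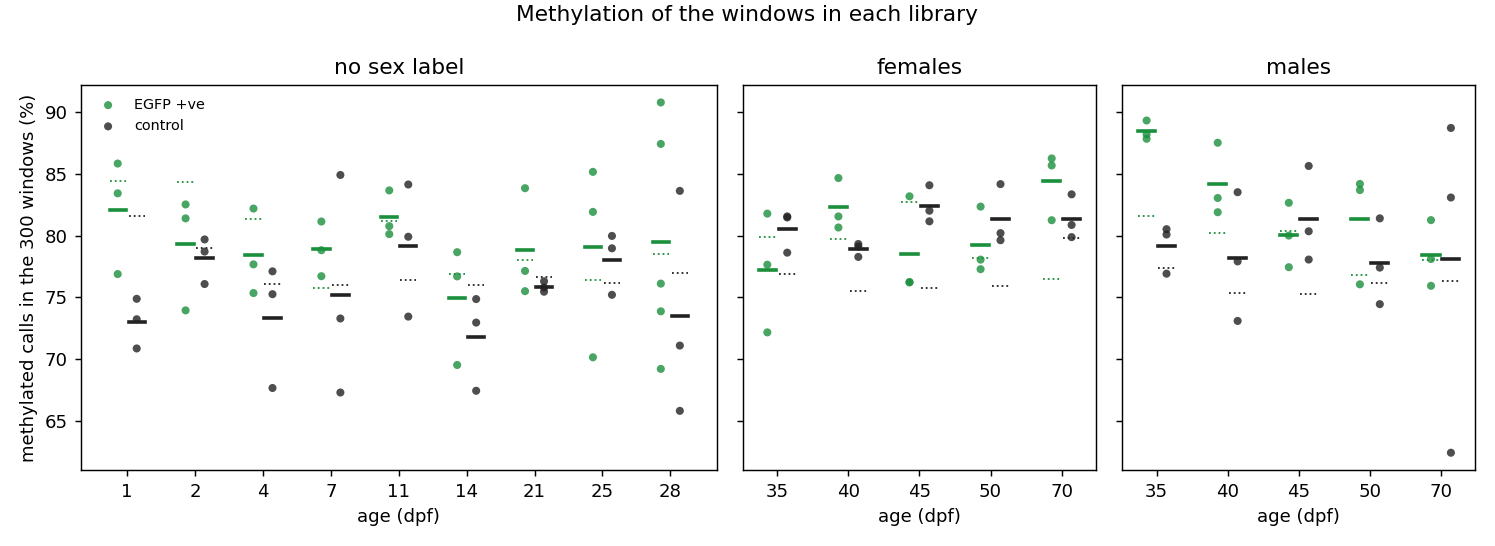
Methylated calls (%) in the 300 windows for each library by age (dpf), with the group mean as a thick bar and the mean of the rest of chromosomes 1 to 25 as a dotted bar, in libraries without a sex label, females and males. EGFP +ve means lie above control means at 9 of 9 ages up to 28 dpf, and EGFP +ve males of 35 dpf, from 87.8% to 89.3%, lie above all 3 control libraries of that age and sex.

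The sexes were compared in how the EGFP +ve cells stood to the control cells, and the outcome depended on the windows and libraries used. In EGFP +ve cells of 35 to 50 dpf, females were below males at 4 of 4 ages, by a mean of -4.16 ± 1.35 points (exact permutation p = 0.0148, adjusted p = 0.0640), and by -4.92 points within sequencing runs (permutation p = 0.041). The order was the opposite at 70 dpf, an age outside this test. There EGFP +ve females had 84.4% ± 2.73 and males 78.4% ± 2.67 (SD, n = 3 each), a difference that was not tested. In control cells of 35 to 70 dpf, females were above males by 2.00 ± 1.87 points (exact permutation p = 0.285, adjusted p = 0.618). The difference between EGFP +ve and control cells was smaller in females than in males of 35 to 50 dpf by 5.85 points, signed -5.85 as females minus males (permutation p = 0.00423, adjusted over 18 such tests p = 0.0318). This test was added after the values were seen. In the spread windows it was -8.52 points (p = 0.00681, adjusted p = 0.0318, permutation test) and in the stacked windows 0.22 points (p = 0.942, permutation test). The value for the 300 windows was -3.50 (permutation p = 0.199) without the libraries of replicate B, -2.97 (p = 0.201) when each window counted equally and -2.0 (p = 0.203) with the top 1000 windows, so the difference between the sexes did not pass under other weights of the windows or without replicate B.

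In the libraries of females of 35 to 50 dpf the difference between the cells was not the same in the windows as in the rest of the genome. In their EGFP +ve cells the rest of chromosomes 1 to 25 was at 80.1% ± 2.70 and in control cells at 76.0% ± 1.37 (n = 12 each), a difference of 4.10 points that the windows, with -1.48 points, did not share. The value of the windows depended on their choice and changed sign in 3 of 17 alternatives. It was 2.83 points in the top 1000 windows, 0.39 in libraries with at least 200 calls and 1.98 in stacked windows. The gap, the methylation of the windows minus that of the rest in the same library, was -0.82 ± 3.62 points in EGFP +ve and 4.76 ± 2.63 points in control cells. This difference of -5.58 points (exact permutation p = 0.0004, test chosen after the values were seen) was negative at each of the 4 ages. In females of 70 dpf, outside this test, the gap was instead higher in EGFP +ve cells. It was 7.92 ± 2.38 points there and 1.51 ± 3.27 points in control cells (SD, n = 3 each), a difference that was not tested. At 45 dpf the 3 EGFP +ve libraries lay between -6.18 and -1.11 points and the 3 control libraries between 3.78 and 10.3, and at 40 dpf, between -1.31 and 5.44 and between 2.60 and 3.89, the groups overlapped. In males the difference of the gaps was 0.71 points (exact permutation p = 0.719).

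Between the earliest and the later ages up to 28 dpf the windows differed less than the rest of the genome did, but the contrast did not pass a test. In EGFP +ve cells the rest was 6.03 points more methylated at 1 to 2 dpf than at 4 to 28 dpf, and in control cells 3.96 points. In the windows the corresponding differences were 1.86 ± 2.13 points in EGFP +ve cells (80.7% ± 4.41, n = 6, against 78.8% ± 5.46, n = 23, exact permutation p = 0.448) and 0.31 ± 1.81 points in control cells (75.6% ± 3.31, n = 6, against 75.3% ± 5.49, n = 21, exact permutation p = 0.897). Taken as the gap to the rest, an alternative chosen after the values were seen, the differences were -4.17 points (exact permutation p = 0.110) and -3.65 points (exact permutation p = 0.128), and neither passed. Over all libraries, EGFP +ve (n = 59) and control (n = 57), the windows were 0.87 ± 0.51 points (SE) more methylated than the rest of the same library, 79.1% against 78.2%, with a positive gap in 63 libraries (Wilcoxon signed-rank p = 0.0682, adjusted p = 0.222). The gap had opposite signs in the kinds of windows. It was -2.30 points in the stacked windows, in the 111 libraries with at least 50 calls there, and 2.65 points in the spread windows. Taken with 1 value per read, it was -6.41 points in all 300. The gap did not differ between the cells over all ages (-0.10 ± 0.91 points, permutation p = 0.912). With 1 value per read it was lower in EGFP +ve cells (-3.08 points, permutation p = 0.00018). Stacked windows held 5282 of 9111 control reads and 4823 of 7134 EGFP +ve reads of the members. As control calls chose the members, this mix is set in part by the rule, and the value per read is not read as a difference between the cells. By calls, the difference of the gaps was -0.63 points in stacked windows (permutation p = 0.590) and 0.87 points in spread windows (permutation p = 0.530).

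The share of calls that fell in the windows was compared between cells with windows chosen anew for each age and sex from the control libraries of all other ages and sexes, because the rule had used every control library. In these windows EGFP +ve libraries had 1.59% ± 0.338 of their calls (SD, n = 59), from 0.927% to 2.43%, and control libraries 1.58% ± 0.392 (n = 57), from 0.574% to 3.03%. The means differed by 0.0097 ± 0.064 points over the 19 combinations of age and sex, with EGFP +ve cells higher at 10 (permutation p = 0.876, adjusted p = 0.912). With the 300 windows of the rule the shares were 1.62% ± 0.363 and 2.07% ± 0.533, with the control libraries themselves having chosen the windows. Reading the stacked windows among those chosen anew gave a difference of 0.064 points (permutation p = 0.0717).

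**Figure D5:**
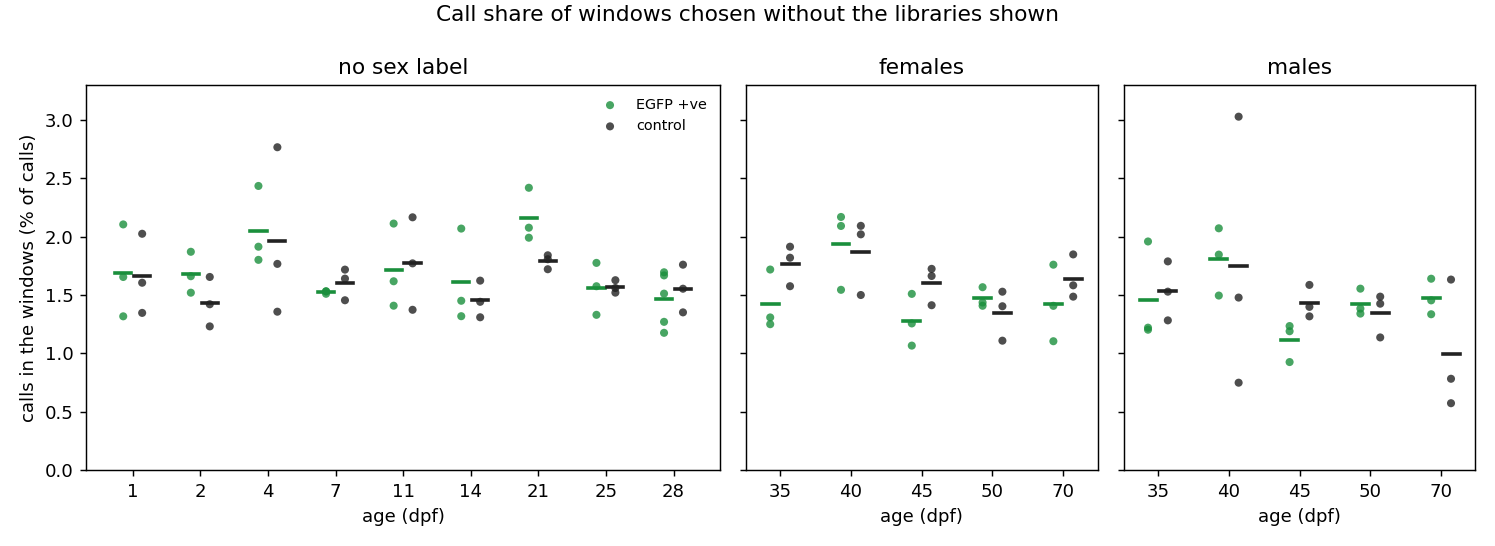
Calls (%) of each library that lie in the 300 densest windows, chosen for each age and sex without the control libraries of that age and sex, with group means as bars. Shares of EGFP +ve libraries, from 0.927% to 2.43%, overlap those of control libraries, from 0.574% to 3.03%, at nearly all ages.

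Among EGFP +ve libraries the share of the 300 windows did not differ by sex or age beyond its spread. Females of 35 to 50 dpf had 1.54% ± 0.336 and males 1.5% ± 0.368 (n = 12 each, exact permutation p = 0.742). Libraries of 1 to 2 dpf had 1.78% ± 0.371 (n = 6) and those of 4 to 28 dpf 1.74% ± 0.375 (n = 23, exact permutation p = 0.775). Both p-values were 0.912 after adjustment. Stacked windows alone held 0.681% ± 0.217 of the calls of EGFP +ve libraries and 0.645% ± 0.197 of those of control libraries. The densest window had calls in all but 4 libraries of each kind of cells, and its share ranged from 0 to 0.458% in EGFP +ve and from 0 to 0.526% in control libraries.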

How the data were processed

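Libraries had been prepared by post-bisulfite adaptor tagging and sequenced as single reads. After trimming with Trim Galore, the authors mapped reads with Bismark 0.19.0 (per the processing notes) in pbat mode. They deposited the CG calls as 1 file of other values per library (read name, methylation state, chromosome, position and call letter) with 1 line per call, without normalization, pooling or a score. The study's text names GRCz11 and the processing notes GRCz10. Positions are printed as the files give them, and none was converted. For 6 libraries whose day field gives 7 dpf the title's 11 dpf was used. No genome or annotation of that assembly was used, so no sequence or gene is given.

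Calls were counted in windows of 10000 bp in Python 3.11.15 with the packages scipy 1.17.1, pandas 2.3.3 and numpy 2.4.6. Figures were made in matplotlib 3.10.9. Ties in rank were broken by chromosome and start. Methylation of a library is the percentage of methylated calls pooled over the windows, in libraries with at least 50 calls, and the gap is taken to the rest of chromosomes 1 to 25 without the ribosomal region. Group differences were means over ages, or ages and sexes, tested by two-sided permutation within these strata. Every arrangement was enumerated (exact) where feasible, otherwise 100000 were drawn (smallest p 1e-05). Single windows were tested by quasi-binomial regression with 5 stages and Benjamini-Hochberg adjustment. The statistics were tested on simulated data. Libraries held 8735 to 163870 calls, median 22682.5. Windows named are the 10 densest, the 5 longest runs (and 1 tied with the fifth in windows and control calls), those at the limit, and those picked after their values were seen, which are marked. Replicate letters A to E come from the labels. Nothing states that a letter marks the same fish in both kinds of cells, and the p-values measure the spread between these libraries. Sequencing runs were read from read names (8 runs, 2 libraries in more than 1). Members, kinds of windows and tests were chosen with earlier results of these data known.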

Additional observations from a re-analysis of the deposited data

Results flagged for a closer look

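In the 5 EGFP +ve libraries of 28 dpf, replicate D had 0.458% of its calls in the densest window, from 6 reads, against 0.078% to 0.184% in the other libraries, and stood apart by a test of the gap to the nearest library. Of 13 measures tested in this group 1 was picked out, and chance picks out about 1 in 20.

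The difference between EGFP +ve and control cells was lower in females than in males of 35 to 50 dpf by all measures of methylation that included the spread windows. As females minus males it was -5.85 points in the 300 windows and -8.52 points in the 261 spread windows. As the gap to the rest of the genome it was -6.29 points (permutation p = 0.0039) and -8.94 points (permutation p = 0.00707). Each had an adjusted p of 0.0318 over the 18 tests. In the 39 stacked windows the 2 measures gave 0.22 and -0.60 points, with permutation p of 0.942 and 0.853.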

How the results depend on the processing

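Each of 15 results was computed again under 241 alternatives in all, judged at an unadjusted p of 0.05: 160 kept direction and side, 43 changed sign, and 2 counts moved. With the sign kept, 27 lost and 9 gained a p under 0.05. Some of those that changed sign also had a p under 0.05. Stacked or spread windows alone, the gap and all alternatives of the interaction were added after seeing the data. The causes were not tested. In points unless stated, EGFP +ve minus control at 1 to 28 dpf was 1.53 with 1 value per read, 2.98 in stacked windows, 1.38 as the gap, 1.63 as the mean over windows and 2.32 without chromosome 4. In females of 35 to 50 dpf it was 1.98 in stacked windows, -5.58 as the gap, 0.39 in libraries with at least 200 calls and 2.83 in the top 1000 windows. In males it was 0.95 with 1 value per read, 1.75 in stacked windows, 0.71 as the gap, 1.2 as the mean over windows, 2.04 in the top 100 and 3.89 within sequencing runs. At 70 dpf it was -2.31 with 1 value per read, -0.91 in stacked windows and -2.98 as the mean over windows. Females minus males in EGFP +ve cells was 0.74 in stacked windows, -2.36 with at least 200 calls, -3.10 as the mean over windows, -2.55 in the top 100, -2.02 in the top 1000 and -4.22 without chromosome 4. In control cells it was -0.22 in stacked windows, 3.89 with libraries weighted equally in the ranking and -0.48 as the mean over windows. The females minus males difference between cells was -3.18 with 1 value per read, 0.22 in stacked windows, -4.05 with at least 200 calls, -2.97 as the mean over windows, -4.31 in the top 100 and -2.0 in the top 1000. Libraries of 1 to 2 dpf minus 4 to 28 dpf differed by -4.17 as the gap in EGFP +ve cells, and in control cells by -1.65 in spread windows, -3.65 as the gap and -2.26 in the top 100. The gap to the rest was -6.41 with 1 value per read, 2.65 in spread and -2.30 in stacked windows, -0.69 with equal weights, 0.99 with at least 200 calls, 0.90 in the top 100, -1.09 in the top 1000, -0.90 without chromosome 4 and -0.093 without the 10 densest windows. Its difference between cells was -3.08 with 1 value per read, 0.87 in spread windows, 1.58 with equal weights, 0.37 with at least 200 calls, -2.36 as the mean over windows, 0.32 in the top 100, 1.11 in the top 1000 and 0.13 within runs. The call share differed between cells by -0.442 percentage points with the windows of the rule, -0.0049 without chromosome 4 and -0.025 without the 10 densest windows. Between the sexes it differed by -0.038 in stacked windows and -0.050 within runs. Between ages it differed by -0.0415 with duplicate reads left out, -0.182 with equal weights, -0.221 as a share of reads, -0.039 in the top 100, -0.043 without chromosome 4 and -0.0069 without the 10 densest windows. With at least 200 calls, and with duplicate reads left out, 1 window was called in place of 0.

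Leaving out the libraries of each replicate letter in turn gave 3.16 to 5.21 points for EGFP +ve minus control at 1 to 28 dpf, -1.70 to -1.08 in females, 2.43 to 6.57 in males and -1.18 to 4.46 at 70 dpf. It gave -4.99 to -3.26 for females minus males in EGFP +ve and 0.47 to 4.14 in control cells, -8.27 to -3.50 for the sexes' difference between cells, and 0.32 to 2.41 and -1.61 to 1.35 for the ages in EGFP +ve and control cells. The gap ranged from 0.53 to 1.52 and its difference between cells from -0.27 to 0.24, the shares from -0.029 to 0.042 between cells, -0.070 to 0.107 between sexes and -0.014 to 0.118 between ages, and windows called from 0 to 0.

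Libraries of EGFP +ve and control cells with the same letter (57 pairs) had deviations that correlated at 0.108, and nothing states that they share fish. Under a block for the replicate letter the 1 to 28 dpf difference was 3.11 points (permutation p = 0.0135), and 0 of 10 results changed their call. With a median of 409.5 calls per library in the windows, the Wilson interval of a single library had a median half-width of 3.94 points. This interval takes each call as independent, although calls of 1 read go together, so the counting error may be larger.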
